A study of Mus musculus with 6 samples.

Results

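The genes of fat cell hormones, lipid droplet proteins and fatty acid uptake were followed in 4T1 tumours with and without knockdown (KD) of Bptf. The set held 10 genes chosen by name: Adipoq, Retn, Lep, Cfd, Cidec, Plin1, Plin4, Fabp4, Lpl and Cd36. They were chosen with earlier results of these data known. Of these, 8 had at least 1 probe set annotated to them alone, 14 probe sets in all among 22626 on the array. For Cfd and Plin1 there was none in the annotation used, and they were not analysed here. The group means of all 8 were 4.6-fold to 25.1-fold lower in the Bptf KD tumours. The ends of that range, Lep and Adipoq, rest in part on very low levels and did not pass the adjusted test. On all 14 probe sets every Bptf KD tumour lay below every control, as on 8.15% of all probe sets.

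White fat cells store triglyceride in 1 large droplet and secrete hormones that report on that store. Lpl, lipoprotein lipase, releases fatty acids from circulating lipoproteins. Cd36 carries fatty acids across the membrane and Fabp4 binds them in the cytosol. The perilipins and Cidec coat the droplet and govern its size and its access to lipases. Adiponectin (Adipoq), leptin (Lep) and resistin (Retn) are secreted into the blood. The mammary fat pad, in which these tumours grew, is rich in such cells. Fabp4, Lpl and Cd36 are not limited to them: macrophages express all of these, and capillary endothelium expresses Fabp4 and Cd36.

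Both groups grew from 4T1, a mouse mammary carcinoma line, and 10000 cells were injected per animal. The site was a mammary fat pad, the fourth, and the hosts were NSG mice (Ifrg2r -/- in the labels). NSG mice lack T, B and natural killer cells. The Bptf KD cells carried short hairpin RNAs against Bptf delivered by the retrovirus MMLV, and the Control cells are labelled only as such. Bptf is the largest subunit of the chromatin remodeller NURF. Each group had 3 tumours, taken on day 21, with 1 array per tumour. The sources used here do not say what the control cells carried, whether the KD cells were 1 clone or how old the mice were. Levels are log2 values made by RMA, a method that corrects, normalises and summarises the probes of each probe set. RMA gives no detection call, so a level in the lowest 30% of probe sets (log2 below 6.09) is called dim. Because each tumour was a piece of bulk tissue, fewer fat cells and less RNA per fat cell cannot be told apart.

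The target of the hairpins checks the labels. On the brightest probe set Bptf stood at 10.69, 9.77 and 10.59 in controls 1 to 3 and at 9.60, 9.56 and 9.99 in Bptf KD 1 to 3. The difference of -0.63 did not pass the test (limma adjusted p = 0.371). On its other 3 probe sets the library labelled Control 2 lay below all 3 Bptf KD tumours, so its level goes against its label. Every direction given here counts that library among the controls, and the counts are also given without it. It correlated with the other controls at 0.934 to 0.939 across genes, against 0.986 between those 2 and 0.984 to 0.988 among the Bptf KD tumours. The difference between 3-prime and 5-prime probes of the actin control, a sign of RNA quality, was 1.23 in it and 0.76 to 1.05 in the other 5. For the Gapdh control the same difference was 0.06 in the library labelled Control 2 and -0.08 to 0.04 in the other 5. Krt8, an epithelial keratin, lay between 13.92 and 14.15 in all 6 tumours. Epcam, an epithelial adhesion molecule, stood at 11.02, 12.01 and 12.24 in controls 1 to 3 and, above all of these, at 12.53, 12.91 and 12.71 in Bptf KD 1 to 3. Its difference of 0.96, opposite in sign to the fat cell genes, did not pass (limma adjusted p = 0.263), and its part in the results was not tested. Both were picked once their values had been seen.

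The promoters of 4 measured genes are shown because these genes moved together while their levels varied very differently among the Bptf KD tumours. Each is the 250 bases before the RefSeq start in the GRCm38.p6 table, 5′ to 3′ on the strand of the gene, and capitals mark motif matches. RefSeq windows were matched for 8 of the 10 genes, and those of Fabp4 and Lpl were not used here.
Adipoq, chr16:23146286-23146535, plus strand: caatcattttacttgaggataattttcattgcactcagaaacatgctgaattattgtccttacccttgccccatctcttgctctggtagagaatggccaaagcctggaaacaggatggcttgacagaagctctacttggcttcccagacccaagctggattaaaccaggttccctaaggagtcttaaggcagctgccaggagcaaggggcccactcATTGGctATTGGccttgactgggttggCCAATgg
Retn, chr8:3655520-3655769, plus strand: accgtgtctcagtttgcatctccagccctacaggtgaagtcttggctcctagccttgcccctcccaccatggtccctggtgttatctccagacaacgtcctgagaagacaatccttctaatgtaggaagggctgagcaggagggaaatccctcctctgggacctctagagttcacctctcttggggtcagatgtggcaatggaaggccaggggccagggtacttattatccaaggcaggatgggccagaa
Lep, chr6:29059971-29060220, plus strand: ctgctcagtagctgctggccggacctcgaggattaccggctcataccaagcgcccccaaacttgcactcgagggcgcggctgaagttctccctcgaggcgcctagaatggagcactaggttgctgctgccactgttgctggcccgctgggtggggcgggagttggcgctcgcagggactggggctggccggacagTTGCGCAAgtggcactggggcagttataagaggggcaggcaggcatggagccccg
Cd36, chr5:17835897-17836146, minus strand: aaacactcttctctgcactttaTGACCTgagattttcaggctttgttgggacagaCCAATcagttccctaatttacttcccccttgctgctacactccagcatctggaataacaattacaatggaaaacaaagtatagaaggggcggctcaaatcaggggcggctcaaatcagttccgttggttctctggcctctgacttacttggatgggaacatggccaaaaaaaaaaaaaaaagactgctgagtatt

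The letters searched on both strands were TTGCGCAA, a palindrome that C/EBP factors bind, AGGTCA, to which nuclear receptors bind singly or in repeats, the repeat of AGGTCA with any 1 base between, bound by the fat cell regulator Pparg with Rxra, and CCAAT. The repeat contains the single AGGTCA. Lep held TTGCGCAA at -55 from the start, a match found in 0.164% of the 32851 windows of all genes. Cd36 held AGGTCA at -228, as 14.0% of all windows did, and CCAAT at -195. CCAAT was in 33.8% of all windows, and Adipoq held it at -34, -27 and -7. The repeat was in 0.0335% of all windows and in none of the 9 windows of these genes. None of the 4 motifs was in the Retn window. These matches are descriptions of letters in a window.

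How far each of these genes differed between tumours with and without the knockdown was tested over all genes. Limma was fitted over 9248 genes, each read on its brightest probe set, with Benjamini-Hochberg adjustment and a threshold of 0.05. Of the 8 genes measured, 6 fell: Retn, Cidec, Plin4, Fabp4, Lpl and Cd36. Over all genes 0.66% were called lower and 0.151% higher, 0.811% in all. Adipoq and Lep did not pass. The median difference of the 8 was -3.00, against 0.06 over all genes. Differences are log2 Bptf KD minus control throughout. For all 8 genes every Bptf KD tumour lay below every control, a pattern seen in 8.17% of all genes. The reverse pattern was seen in 11.8%. All 8 differed by -2 or more in size, as 0.465% of genes did. The genes were chosen with earlier results of these data known. The shares over all genes are therefore a background and not independent evidence. Lep and Cidec had Bptf KD means in the dim range and entered the fit through their control levels, so their folds are uncertain.

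The number of calls depended on which tumour was left out, while the direction of all 8 genes did not. It was 7 without the library labelled Control 2, where 2.52% of all genes were called lower and 1.94% higher. It was 5 without Control 1 and 4 without Control 3, where 0.616% and 0.108% of all genes were called lower. It was 0 without Bptf KD 1, 2 (Fabp4 and Lpl) without Bptf KD 2 and 0 without Bptf KD 3. In those 3 fits limma called 2, 6 and 0 genes of any kind, and all 8 genes had an unadjusted p under 0.05. How many of all genes did so in those fits was not counted. With all 6 tumours kept, 538 of the 9248 genes were lower and 708 higher at that p.

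**Figure D1:**
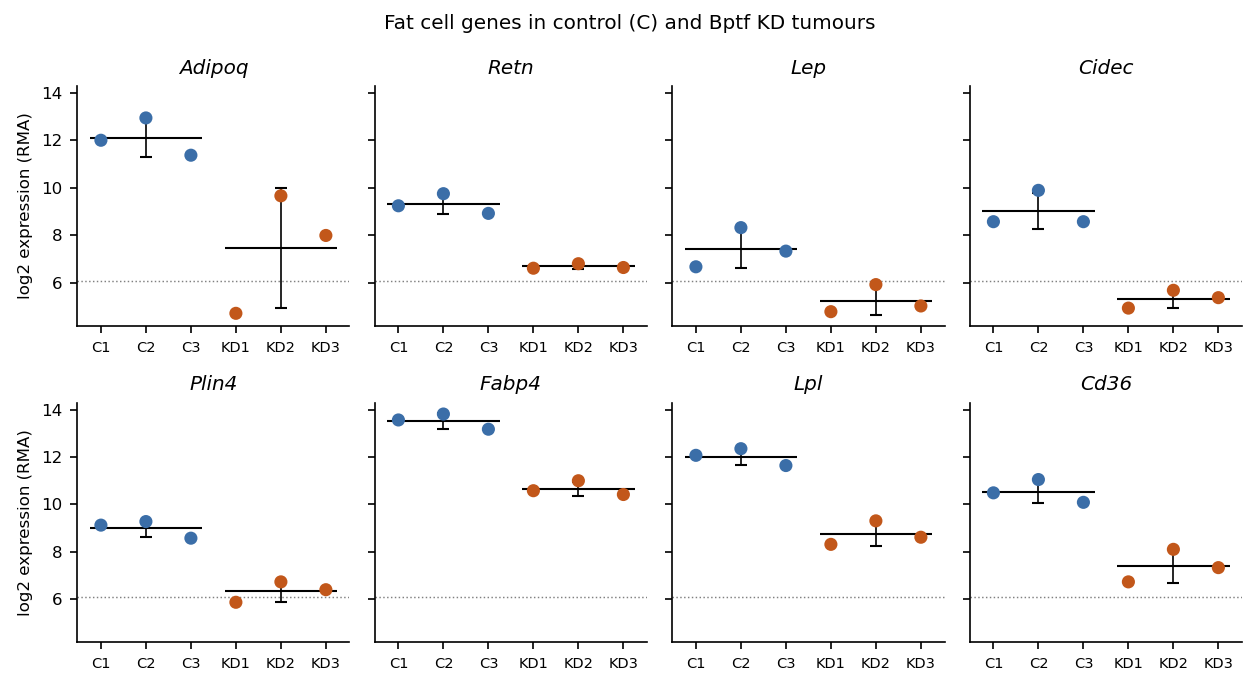
Log2 expression (vertical axis) of each measured gene on its brightest probe set in the 3 control (C, blue) and 3 Bptf KD (KD, orange) tumours. Horizontal lines are group means, bars are SD (n = 3), and the dotted line is the dim level of 6.09. All Bptf KD points lie below all control points, and Adipoq spreads from 4.72 to 9.67 among the Bptf KD tumours.

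Among the hormones, Adipoq, which encodes the insulin-sensitising hormone adiponectin, had the lowest difference of all 9248 genes and one of the widest spreads, both resting in part on a dim value in Bptf KD 1. Its levels were 12.01, 12.95 and 11.38 in controls 1 to 3 and 4.72, 9.67 and 8.0 in Bptf KD 1 to 3. The groups did not overlap, but Bptf KD 1 was in the dim range and Bptf KD 2 was only 1.71 below the lowest control. The means were 12.11 ± 0.79 and 7.46 ± 2.52 (SD, n = 3 each). The difference of -4.65 (SE 1.17, 95% interval -7.43 to -1.87) did not pass (limma adjusted p = 0.159). Among the alternatives it passed only with array weights (adjusted p = 0.0227; range over all 15 alternatives 0.0227 to 0.421, limma). Without Bptf KD 1 the difference was -3.28, smaller in size than those of Car3 (-3.82) and Cidec (-3.48) in that fit.

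Retn, which encodes resistin, a secreted protein linked to insulin resistance in mice, was the most even of the 8 in the Bptf KD tumours. Its levels were 9.25, 9.76 and 8.93 in the controls and 6.62, 6.81 and 6.65 in the Bptf KD tumours. The 3 Bptf KD levels lay within 0.19 of each other and 2.12 below the lowest control. Retn fell by 2.62 on the log2 scale (SE 0.22), a 6.15-fold decrease (limma adjusted p = 0.00931). Its SD among Bptf KD tumours was 0.10, under the median of 0.14 over all genes. The call of Retn ended without any one of the 3 Bptf KD tumours.

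Lep encodes leptin, the hormone that signals fat stores to the brain. Its levels were 6.68, 8.33 and 7.34 in the controls and 4.79, 5.93 and 5.03 in the Bptf KD tumours. All 3 Bptf KD levels were dim, and all 3 controls lay above them. The difference of -2.20 (SE 0.46) did not pass (limma adjusted p = 0.104). It passed with array weights, with a block for the replicate number and without the library labelled Control 2 (range over 14 alternatives 0.00457 to 0.365).

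Of the droplet coat genes, Cidec encodes a protein that joins droplets into a single large one. Its levels were 8.58, 9.90 and 8.58 in the controls and 4.94, 5.69 and 5.38 in the Bptf KD tumours. Every Bptf KD level was dim and every control was above the dim level. Cidec fell by 3.68 (SE 0.39; limma adjusted p = 0.0154), and the call ended without Control 3 and without each Bptf KD tumour. Plin4, a perilipin found on droplets of white fat cells, stood at 9.13, 9.28 and 8.58 in the controls and at 5.88, 6.74 and 6.41 in the Bptf KD tumours. Only Bptf KD 1 was in the dim range. Plin4 fell by 2.65 (SE 0.27; limma adjusted p = 0.0139), and its call ended without each Bptf KD tumour.

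The other perilipins give a contrast within the family. Plin2 coats droplets in most cell types and stood at 12.02, 11.86 and 11.70 in the controls and at 11.86, 11.88 and 11.85 in the Bptf KD tumours, so the groups overlapped. Its difference was 0.00 (95% interval -0.29 to 0.30; limma adjusted p = 0.995), an interval that does not reach the difference of Plin4. Plin3, also widely expressed, differed by 0.36 (95% interval -0.02 to 0.74; limma adjusted p = 0.402). Plin5, the perilipin of oxidative tissues, was dim in all 6 tumours, at 4.96 to 5.24. The difference between the perilipins was not itself tested, and Plin2, Plin3 and Plin5 were chosen after their values were seen.

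Of the genes of fatty acid uptake and carriage, Lpl was read by 2 probe sets. On the brighter its levels were 12.07, 12.35 and 11.64 in the controls and 8.32, 9.31 and 8.62 in the Bptf KD tumours. The lowest control was 2.33 above the highest Bptf KD tumour. Lpl fell 9.65-fold, by 3.27 on the log2 scale (SE 0.29; limma adjusted p = 0.00987). Fabp4, the cytosolic fatty acid carrier, stood at 13.56, 13.81 and 13.17 in the controls and at 10.58, 11 and 10.42 in the Bptf KD tumours. It remained far above the dim level in all 6 tumours. Fabp4 fell 7.19-fold, by 2.85 (SE 0.22; limma adjusted p = 0.00931). The calls of Lpl and Fabp4 ended without Bptf KD 1 and without Bptf KD 3. Cd36 stood at 10.49, 11.05 and 10.09 in the controls and at 6.74, 8.11 and 7.34 in the Bptf KD tumours. Bptf KD 2 was the highest of its group and still 1.98 below the lowest control. Cd36 fell 8.86-fold, a log2 difference of -3.15 (SE 0.38; limma adjusted p = 0.0281), and its call ended without any one tumour other than the library labelled Control 2.

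The probe sets of one gene agreed in direction and mostly in size. A second limma fit over all 22626 probe sets, with no filter on dim values, called 10 of the 14 lower, against 0.194% of all probe sets. All 14 had every Bptf KD tumour below every control, as 8.15% of all probe sets did. The 2 probe sets of Lpl differed by -3.27 and -3.14 and correlated at 0.998 over the 6 tumours. Those of Cd36 gave -3.15, -2.99 and -2.63, and in this fit the brightest one missed the threshold (limma adjusted p = 0.0550) while the other 2 passed (0.0299 and 0.0362). The 4 of Fabp4 gave -2.85, -2.97, -1.31 and -2.24 from the brightest to the dimmest. The value of -1.31 came from a probe set with a control mean of 6.87 and a Bptf KD mean of 5.56, near or below the dim level. It missed the threshold (limma adjusted p = 0.0963). Dim levels also lie behind the called values of -2.24 (Fabp4) and -2.63 (Cd36). Those probe sets were below the dim level on average over the 6 tumours. Their Bptf KD levels were 4.3 to 4.66 and 4.17 to 4.87, so the sizes of these differences are uncertain. Of the 14 probe sets 7 were called without Control 1, 12 without the library labelled Control 2 and 4 without Control 3, where 0.239%, 1.48% and 0.0796% of all probe sets were called lower. There were 0 without any one of the Bptf KD tumours, where limma called 0 probe sets in all and the 14 each had an unadjusted p under 0.05. The share of all probe sets under that p was not counted. Adipoq, Retn, Lep, Cidec and Plin4 had 1 probe set each, so agreement could not be checked for them.

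**Figure D2:**
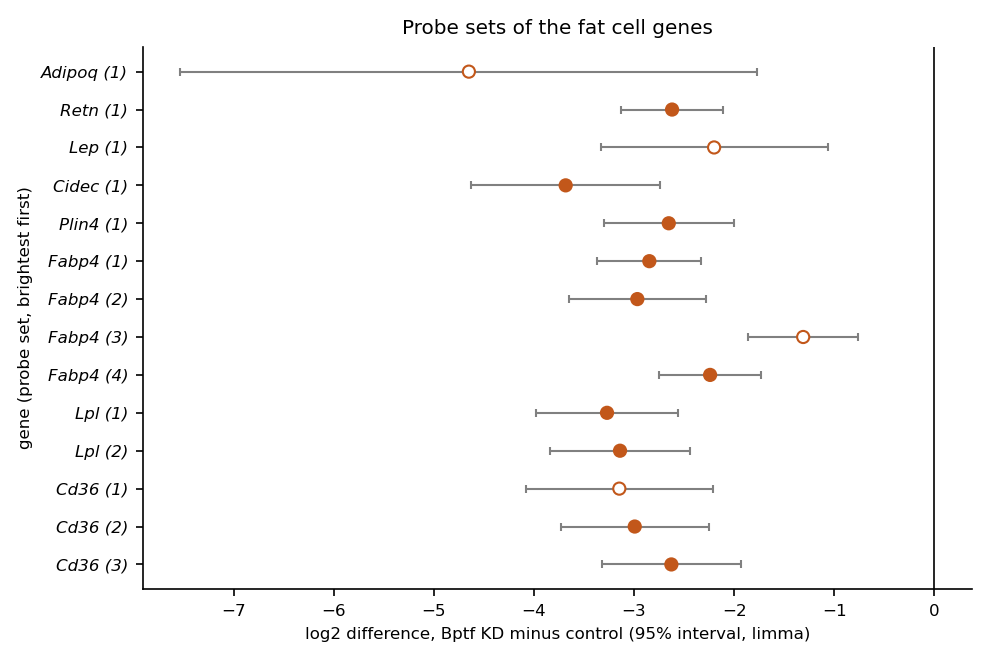
Log2 difference, Bptf KD minus control (horizontal axis), for the 14 probe sets of the 8 genes, each gene from its brightest to its dimmest probe set. Bars are 95% intervals from the limma fit over all probe sets, and filled points passed the adjusted threshold of 0.05. All points lie below 0, from -4.65 (Adipoq) to -1.31 (the third probe set of Fabp4), and the interval of Adipoq is the widest.

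The Bptf KD tumours held the genes in nearly the same order. Bptf KD 2 was the highest of the 3 for 8 of the 8 genes and on 13 of the 14 probe sets, while over all genes it was the highest for 38.1%. Bptf KD 1 was the lowest for 7 of the 8 and on 11 of the 14 probe sets, and for Fabp4 the lowest was Bptf KD 3. The share of all genes that were lowest in Bptf KD 1 was not counted. Among the controls, the library labelled Control 2 was the highest for 8 of 8 genes, against 45.4% of all genes, and on 12 of the 14 probe sets. These 8 genes share the same arrays and are not independent counts.

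The size of the spread differed between the genes. Relative to its own control mean, Adipoq was at -7.39 in Bptf KD 1, -2.44 in Bptf KD 2 and -4.11 in Bptf KD 3. The other 7 genes lay between -4.08 and -2.66 in Bptf KD 1, between -3.33 and -1.52 in Bptf KD 2 and between -3.64 and -2.42 in Bptf KD 3. Adipoq was therefore within the range of the other genes in Bptf KD 2 and below it in the other 2 tumours. The value of Adipoq in Bptf KD 1, 4.72, was dim, so the size of its distance from the other tumours is uncertain. Between Bptf KD 1 and Bptf KD 2 the levels of Cd36, Lpl and Retn, none of them dim, differed 2.59-fold, 1.99-fold and 1.14-fold. By SD among Bptf KD tumours, with the dim value included, Adipoq ranked 4 of 9248 genes. The muscle genes Tnnc2, Acta1 and Myl1 ranked above it and had SDs of 2.60, 2.55 and 2.55. Tnnc2, Acta1 and Myl1 were picked from that ranking. With 3 tumours in a group the spread was not tested. The mean of the skeletal muscle markers was 9.40, 6.15 and 7.43 in Bptf KD 1 to 3, the reverse order of the mean of the 8 genes (6.57, 7.91 and 7.23). In controls 1 to 3 both means had the same order. The muscle mean was 9.00, 11.77 and 6.39 there, and that of the 8 genes 10.22, 10.93 and 9.96. The part of muscle tissue in the spread was not tested.

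**Figure D3:**
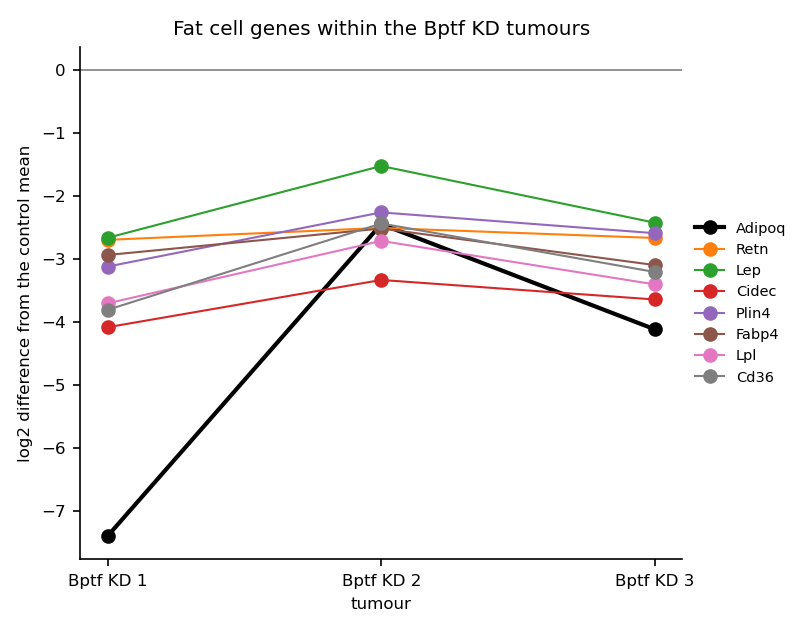
Log2 difference of each of the 3 Bptf KD tumours (horizontal axis) from the control mean of the same gene (vertical axis), with 1 line per gene. The thick black line is Adipoq, which runs from -7.39 in Bptf KD 1 to -2.44 in Bptf KD 2, while the other 7 genes stay between -4.08 and -1.52.

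Correlation over the 6 tumours describes the shared pattern. Between pairs of the 8 genes Pearson's r ran from 0.871 to 0.997, with the lowest values for pairs with Adipoq (0.871 to 0.949). The points share the arrays and the split into 2 groups. Of the other tested genes, each on its brightest probe set, Hp, the haemoglobin-binding protein haptoglobin, had the pattern most like Adipoq (r = 0.978). Hp stood at 11.94, 13.24 and 11.93 in the controls and at 7.86, 10.05 and 9.42 in the Bptf KD tumours, so that Bptf KD 1 was again the lowest. Its difference was -3.26 (limma adjusted p = 0.0760). Nrcam, a cell adhesion molecule (r = 0.967), and the chemokine Ccl22 (r = 0.959) differed by -0.86 and -0.67. Gpsm1 (r = 0.968) and Tcl1b1 (r = 0.957) differed by only -0.21 and -0.18. None of these 5 passed.

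The genes most like the mean of the 8 were Fgg, Tbcel, Scd1, Ccr7 and Dpt, with r from 0.987 to 0.994 over 6 tumours. Scd1, the desaturase that makes oleic acid, fell by 3.52 (limma adjusted p = 0.0165), a call that ended without Control 3, Bptf KD 1 or Bptf KD 3. Dpt, the matrix protein dermatopontin, fell by 2.38 (limma adjusted p = 0.0434), a call that ended with no filter on dim values and without each tumour other than the library labelled Control 2. Fgg, the gamma chain of fibrinogen, differed by -1.64 and lay in the dim range in all 3 Bptf KD tumours. Its limma adjusted p was 0.0514. Ccr7, a chemokine receptor of lymphocytes and dendritic cells, differed by -0.74 and Tbcel by -0.41, and neither passed.

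The wider pathway moved less uniformly. Of 79 genes listed around these 8, 55 were tested. Limma called 4 lower (Car3, Scd1, Dgat2 and Ebf1) and 0 higher, with 22 lower and 4 higher at an unadjusted p under 0.05. Over all 9248 genes, 538 were lower and 708 higher at that p, the background for such counts of each list below. Their median difference was -0.31, against 0.06 over all genes. Without the library labelled Control 2 there were 11 calls, without Control 3 there was 1, and without Bptf KD 1, 2 or 3 there were 1, 2 and 0. All of these calls were lower.

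Among the receptors, resistin relatives and complement partners limma called 0 of 8, with 2 lower and 1 higher at an unadjusted p under 0.05, and the median difference was -0.02. Cfb, complement factor B, differed by -1.08 (limma adjusted p = 0.0826), and the groups did not overlap (9.53 to 10.12 against 8.52 to 9.04). Retnla, a resistin relative made by macrophages and fat, differed by -0.70 (limma adjusted p = 0.0971). Adipor1, a receptor of adiponectin, differed by 0.27, and its probe set with the largest SD gave -0.39. Cdh13, which also binds adiponectin, differed by 0.22.

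Among the other droplet proteins and lipases 1 of 14 was called. Dgat2, which makes triglyceride, had a mean of 8.91 ± 0.37 in the controls and 7.49 ± 0.11 with Bptf KD (SD, n = 3 each), a decrease with a limma adjusted p of 0.0434. It lost its call with the mean of its 2 probe sets and without each tumour other than the library labelled Control 2. Lipe, hormone-sensitive lipase, differed by -0.90, Mgll, which cleaves monoglycerides, by -0.89 and Cav1, the coat protein of caveolae, by -0.78, and none passed (limma adjusted p from 0.0702 to 0.139). G0s2, an inhibitor of the lipase Pnpla2, differed by -2.0 with a wide spread in the controls (8.70, 10.57 and 7.72; limma adjusted p = 0.263). Abhd5, which activates Pnpla2, differed the other way, by 0.62, and its groups did not overlap (limma adjusted p = 0.153). G0s2 and Abhd5 were chosen after their values were seen.

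Among lipase partners and fatty acid carriers limma called 0 of 9, with 4 lower and 0 higher at an unadjusted p under 0.05. Angptl4, a secreted inhibitor of Lpl, differed by -0.97, and the lipoprotein receptors Vldlr and Lrp1 by -0.83 and -0.52. Fabp5, a carrier of the same family as Fabp4, stood at 13.36, 13.77 and 13.49 in the controls and at 12.94, 13.01 and 12.74 in the Bptf KD tumours. Its difference of -0.64 (95% interval -1.0 to -0.28; limma adjusted p = 0.139) lay apart from that of Fabp4 (95% interval -3.37 to -2.33).

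Among 10 fat cell regulators limma called 1. Ebf1, a transcription factor of the fat and B cell lineages, fell by 1.34 (SE 0.19; limma adjusted p = 0.0434), a call that ended without Control 3 and without each Bptf KD tumour. Pparg, the nuclear receptor that drives fat cell formation, stood at 6.94, 7.13 and 6.43 in the controls and, all dim, at 5.38, 5.93 and 5.69 with Bptf KD. Its difference of -1.17 did not pass (limma adjusted p = 0.0836), though it did without the library labelled Control 2 (0.0486) and with array weights (0.0141), the range over its alternatives being 0.0141 to 0.285. Cebpb, an early regulator of the lineage that other cells also use, differed by 0.58 and Rxra, the partner of Pparg, by 0.34. Neither passed (limma adjusted p = 0.253 and 0.376), and the dimmer probe set of Rxra differed by -0.15. Cebpa differed by -0.07, with overlapping groups, and turned positive without the library labelled Control 2 (0.26). Cebpa was chosen after its values were seen.

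Among 14 genes of fat cell metabolism 2 were called, and 12 had negative differences. Car3, the carbonic anhydrase of fat and muscle cells, stood at 13.89, 14.06 and 13.47 in the controls and at 10.45, 9.89 and 10.09 in the Bptf KD tumours. Unlike the 8 genes, it was highest in Bptf KD 1. It fell by 3.66 (limma adjusted p = 0.00364), and the call ended without Bptf KD 3. Npr3, a clearance receptor of natriuretic peptides, differed by -1.53 and Fasn, fatty acid synthase, by -0.93, and neither passed (limma adjusted p = 0.0618 and 0.118). All 3 Bptf KD levels of Npr3 were dim, at 5.46 to 6.04.

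**Figure D4:**
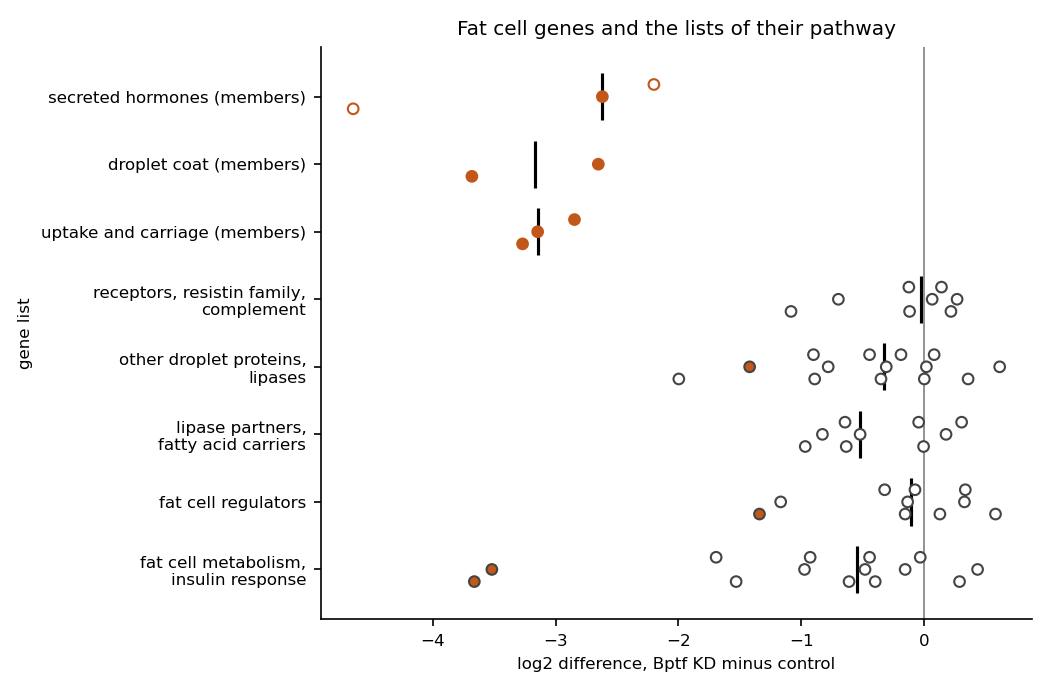
Log2 difference, Bptf KD minus control (horizontal axis), for every tested gene of the 3 member groups (orange outline) and the 5 pathway lists (grey outline). Filled points passed the limma threshold, and vertical bars are list medians. The 8 genes lie between -4.65 and -2.20, whereas the medians of the 5 pathway lists lie between -0.55 and -0.02.

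Marker lists of the other cell types in a fat pad tumour show what moved beside these genes. The 10 endothelial markers averaged 7.42 to 7.87 among controls against 7.50 to 7.57 with Bptf KD, and limma called 1 of 10. That gene was Tek, an angiopoietin receptor, which fell by 1.30 (limma adjusted p = 0.00987). All 3 Bptf KD levels were dim, at 5.63 to 5.66, against 6.79 to 7.06 in the controls. Tek entered the fit through its control levels, so the size of its fall is uncertain. Its call ended without Control 3 and without each Bptf KD tumour. Vwf, a clotting factor of endothelium, differed by -0.98 and Cldn5, a tight junction protein, by 0.76. The 10 macrophage markers averaged 11.67 to 11.86 among controls against 11.53 to 11.84 with Bptf KD. Limma called 0 of 10, with 2 lower and 3 higher at an unadjusted p under 0.05. Cd163 and Mrc1, scavenger receptors of resident macrophages, differed by -2.13 and -0.75, and C1qb, a complement chain made by macrophages, by 0.40. The averages of both lists overlapped between the groups. Tek, Vwf, Cd163 and Mrc1 were lower, and Cldn5, C1qb and the related chains C1qa and C1qc higher, in every Bptf KD tumour than in every control. Over all genes 8.17% were lower and 11.8% higher in that way. C1qa and C1qc were named after their values were seen. The part of endothelium and macrophages in the result was not tested.

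Fibroblast markers were lower on average together with the fat cell genes. They averaged 11.29 to 11.53 among controls against 10.19 to 10.44 with Bptf KD. All 11 tested had negative differences, as 3682 of all 9248 genes did, and limma called 4 of 11. Among these, the collagens Col1a1 and Col3a1 fell by 1.81 and 0.91, and the proteoglycan Dcn by 1.70 (limma adjusted p from 0.0385 to 0.0434). The second probe set of Col1a1 differed by -1.39, with overlapping groups (limma adjusted p = 0.313 over all probe sets). The receptors Pdgfra and Pdgfrb, on the same list, differed by -0.24 and -0.38 (limma adjusted p = 0.736 and 0.491), and the groups of Pdgfra overlapped. Both receptors were chosen after their values were seen. Without Control 3 and without each Bptf KD tumour no gene of any marker list was called. Without Control 1 there were 3 calls over all marker lists, all lower. Without the library labelled Control 2 there were 10 lower and 1 higher. The median difference of the fibroblast list was -0.90, against -3.00 for the 8 genes. The part of fibroblasts in the result was not tested.

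Skeletal muscle markers followed another pattern. Their mean was 9.00, 11.77 and 6.39 in controls 1 to 3 and 9.40, 6.15 and 7.43 in Bptf KD 1 to 3, so the groups overlapped. Limma called 0 of 13, with 0 at an unadjusted p under 0.05. The library labelled Control 2 had the highest level of the muscle list and of all 8 fat cell genes. The 8 genes kept their direction without it, and Retn, Lep, Cidec, Plin4, Fabp4, Lpl and Cd36 passed in that fit. On the brown fat list Ucp1, the heat-producing protein, was dim in all 6 tumours, at 4.64 to 4.90, and so were Elovl3, Zic1 and Ppargc1a. Dio2, an enzyme that activates thyroid hormone, was not dim (7.42 to 8.15) and differed by 0.28, with overlapping groups. Cox8b and Cox7a1, on the brown fat list and also muscle genes, were highest in the library labelled Control 2 (11.08 and 8.41). Limma called 0 of the 3 brown fat genes tested and 0 of the 4 mammary secretory genes tested, with 0 and 3 of them lower at an unadjusted p under 0.05. The casein Csn3 differed by -1.32, Xdh, which is needed to secrete milk fat, by -0.59 and the milk protein Lalba by -0.30. Wap, a defining milk protein, was dim in all 6 tumours. The caseins Csn1s1 and Csn2 set Control 1 apart. Csn1s1 was at 7.51 there and at 5.08 to 5.68 in the other 5 tumours. The probe set of Csn2 with the wider spread was at 8.39 in Control 1 and at 3.61 to 3.87 elsewhere. These caseins were picked once their values had been seen. The part of muscle and mammary tissue in the result was not tested.

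**Figure D5:**
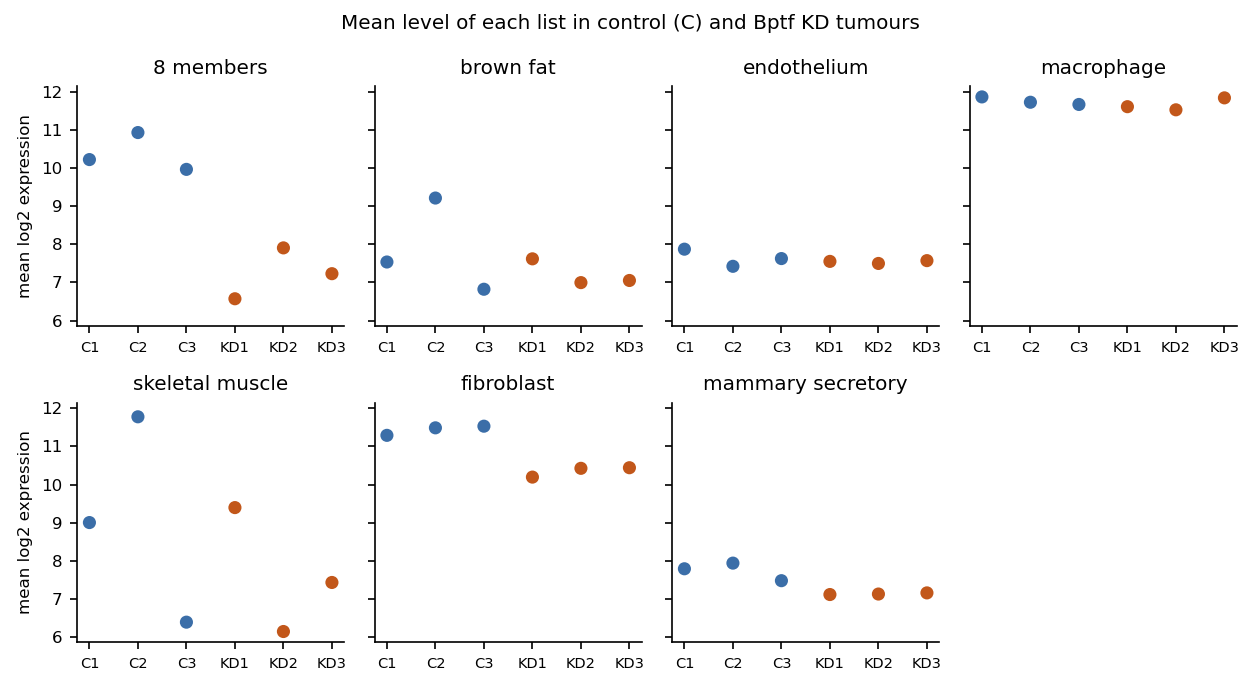
Mean log2 expression (vertical axis) of the 8 genes and of each marker list in the 3 control (C, blue) and 3 Bptf KD (KD, orange) tumours. The 8 genes lie at 9.96 to 10.93 among controls against 6.57 to 7.91 with Bptf KD. The endothelial and macrophage lists overlap between the groups, the mean of the fibroblast list is lower in all Bptf KD tumours, and the muscle list is highest in the library labelled Control 2.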

How the data were processed

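RNA of 3 Control and 3 Bptf KD tumours was measured on Affymetrix arrays from 500 ng of total RNA each. The authors deposited log2 expression values made with RMA (version not stated), per the submitters' processing notes. No source states the log base. It was taken as 2, the scale of RMA, and the values run from 2.98 to 15.17. Of 22690 probe sets, 64 are controls. The platform annotation gave 1 gene for 20380, several for 691 and none here for 1555. Symbols were checked against RefSeq GRCm38.p6, used for names and promoter sequences. The number of arrays limits the precision, and no source says that each tumour had its own mouse, so p-values measure the spread between these samples.

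The brightest probe set stood for a gene, probe sets in the lowest 30% by mean were left out (dim level 6.09), and 9248 of 12393 genes were tested with limma 3.58.1 (R 4.3.3; functions lmFit and eBayes, no covariate, Benjamini-Hochberg over all genes). A second fit used all 22626 probe sets that are not controls. All adjusted p-values come from limma. The procedure was tested on simulated data. Their noise was drawn for both groups from the spread among the Bptf KD tumours (median SD 0.14). The wider spread of the real controls (median SD 0.24) was not covered. Genes named are the 8 measured members, Bptf, all called and otherwise up to 4 genes of the smallest p per pathway list, up to 3 per marker list and the 5 most correlated with Adipoq or with the mean of the 8. Others are named as chosen later. Members and lists were chosen with earlier results of these data known. Alternatives were other filters, other probe set rules, median centring, a second quantile normalisation, a trended and robust variance prior, weights per array, a block for the replicate number and leaving out each tumour. A left-out tumour kept the genes and probe sets chosen on all 6.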

Additional observations from a re-analysis of the deposited data

How the results depend on the processing

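All 8 genes had negative differences in every alternative in which they were tested. Of these genes 5 to 8 were called in the 9 alternatives that kept all tumours (5 of the 6 left by the stricter filter) and 0 to 7 with a tumour left out. Of the 14 probe sets 9 to 14 were called with all tumours kept (9 of the 12 left by the filter) and 0 to 12 with a tumour left out. Pathway genes gave 24 calls with array weights (20 lower and 4 higher) and 0 to 11 with a tumour left out. Marker genes gave 20 calls with array weights (14 lower and 6 higher) and 0 to 11 with a tumour left out. Over all genes there were 75 calls, and 1676 with array weights, of which 690 were lower (7.46% of all genes, beside 8 of the 8). With the replicate number as a block 7 of the 8 genes, 8 pathway genes and 6 marker genes were called, and 107 over all genes. The deviations of same-numbered tumours correlated at 0.005, 0.28 and 0.37, so the numbers were not taken as pairs. 

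Some differences changed sign, not all of them small, and the cause was not tested. Plin2 was -0.01 with median centring, -0.009 with a second quantile normalisation and -0.005 without Bptf KD 2, and from -0.077 to 0.083 over the tumours left out. Adipor1 was -0.39 with the probe set of the largest SD. Gpsm1 was 0.034 with the mean of its probe sets and 0.22 with the one of the largest SD. Array weights turned Cox8b (0.26), Cox7a1 (0.17), Pvalb (0.11), Tcap (0.12), Cebpa (0.28) and Krt8 (-0.005). In the main fit these differed by -1.64, -0.54, -2.17, -1.14, -0.07 and 0.02, so Cox8b, Pvalb and Tcap lost large differences. The median difference of the marker genes went from -0.73 in the main fit to 0.01 with array weights. With a tumour left out Cox7a1 ran from -0.975 to 0.06 (positive without the library labelled Control 2), Cebpa from -0.308 to 0.257 (0.03 without Bptf KD 1) and Krt8 from -0.028 to 0.087 (negative without Bptf KD 3). RMA values carry no measure of signal over background, which limits the folds of Lep, Cidec and Adipoq.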

Other observations

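Over all 22626 probe sets, the one whose pattern was most like that of Adipoq over the 6 tumours (r = 0.999) has no gene name in the annotation used here. Its levels were 13.18, 13.59 and 12.37 in controls 1 to 3 and 6.43, 10.81 and 9.21 in Bptf KD 1 to 3. Like Adipoq it was lowest in Bptf KD 1 and highest in Bptf KD 2, with an SD of 2.22 among the Bptf KD tumours, and its difference of -4.23 did not pass (limma adjusted p = 0.200 over all probe sets). Named probe sets of Far1 (r = 0.985) and Gli3 (r = 0.984) came next, with differences of -0.18 and -0.16 that did not pass (limma adjusted p = 0.576 and 0.579). These 3 probe sets were singled out after their values were seen.

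Other genes of the fat cell lineage lay too low to enter the gene-level test or depended on the probe set. In the fit over all probe sets, Ebf2, a marker of fat cell precursors, was at 6.41, 6.08 and 6.45 in the controls and at 5.23, 5.36 and 5.19 in the Bptf KD tumours (difference -1.05, limma adjusted p = 0.0550). Zfp423, a regulator of preadipocyte commitment, differed by -0.73 (limma adjusted p = 0.113). Pck1, which makes the glycerol backbone for triglyceride in fat, differed by -1.23 (limma adjusted p = 0.151). Thrsp, a lipogenic protein, gave -0.48 on its brighter probe set and -2.74 on its dimmer one (limma adjusted p = 0.462 and 0.0565). Ebf2, Zfp423, Pck1 and Thrsp were picked with their values known. On their lists, the remaining genes too dim for the gene-level test fell less or stayed flat on their brightest probe sets. Klf15 differed by -0.48, and its groups did not overlap. Dlk1 (-0.10), Aqp7 (-0.19), Acvr1c (-0.12), Acaca (-0.14) and Insr (-0.06) had overlapping groups. None of these passed, and they too were named with their values known.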
